A study of Mus musculus with 22 samples.

Results

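The outer segment of a rod or cone is the light-sensing end of the cell, and the 9 genes described here encode proteins of its discs, of the axoneme that runs along it, and of the transport and folding that supply it. They are Prph2, Rom1, Prom1, Cdhr1, Rp1, Rp1l1, Fscn2, Tulp1 and Aipl1. Each was found by matching the Ensembl identifiers of the deposited expression table to gene symbols, and all 9 were present among the 13812 genes of the table. RNA came from sorted cells of the mouse retina. Rods, cones and bipolars were each sampled at postnatal day 7 (P7), 13 (P13) and 30 (P30). Rod bipolars, and cone bipolars, were sampled at P13 alone. That makes 11 groups of 2 libraries, 22 libraries in all. The bipolars of the sample labels are ON-bipolars in the design text of the series. No genotype, strain, reporter, treatment or sorting marker is named in the labels, so the groups can be described by cell type and age only.

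An outer segment is a modified cilium packed with a stack of membrane discs that hold the visual pigment and the enzymes of phototransduction. It joins the cell body through a connecting cilium, and its microtubule axoneme continues from there alongside the discs. New discs form at its base throughout life. In the mouse, outer segments grow out after birth, over the ages sampled here, and bipolar cells have none. Loss of many of these genes leads to photoreceptor degeneration.

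Levels are given as CPM, the reads of a gene scaled to an effective library size, recovered from the deposited log2 values. Differences are log2 fold changes ± SE from limma, with p-values adjusted by Benjamini-Hochberg over the 13410 genes tested. Called means here an adjusted p under 0.05 together with a fold change of 2 or more, up or down. Each gene has a single spread, estimated from all 11 groups together, and its SE therefore does not vary with age. Whether both libraries of a group came from different animals is not stated, and the p-values then measure only how far such libraries differ, which may be technical. Fewer cells of a type and less RNA per cell cannot be told apart in these bulk samples.

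The libraries held 14.4 to 54.4 megareads, and a count of 3 reads over a group corresponded to 0.0275 to 0.0766 CPM. Such floors allow for counting error and not for the linear amplification of the RNA. The 8 rod markers summed to 16846 to 42264 CPM in rods and to 128 to 962 CPM in the bipolar-type groups. The 8 cone markers summed to 15935 to 51671 CPM in cones and to 23.5 to 322 CPM in rods, where Opn1mw and Cnga3 had no reads at P7. The 8 bipolar markers summed to 5170.1 to 19904 CPM in the bipolar-type groups, to 212 to 504 CPM in cones and to 3.49 to 23.4 CPM in rods. In cones, rod markers summed to 4393 to 12844 CPM. Most of that came from Sag and Gngt1, at 23.2 to 96.6% of their level in rods, while Nrl, Nr2e3, Gnat1, Pde6b, Cnga1 and Samd11 stood at 1.14 to 5.38% of theirs. The share of reads from the mitochondrial genome differed between groups, from a mean of 2.28% in rod bipolars to 33.6% in cones at P30. The deposited scaling sets this and other shifts aside; with plain read totals the median gene moved from 0.14 to 0.74 for rods against cones at P30 and from -0.19 to -0.97 for cones from P7 to P30.

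RefSeq promoter sequences (GRCm38.p6, from 250 bases before to 50 bases after the start site) were at hand for 7 of the 9 genes, all but Rp1 and Rp1l1. Those of 4 genes are shown because their products share a disc or a cell but their levels sorted the groups differently. Prph2 and Rom1, partners at the disc rim, were both higher in rods. Cdhr1 and Aipl1 had their highest group mean in cones. Each is read 5′ to 3′ on the gene's strand, and capitals mark the letters TAATCC, the core recognised by the photoreceptor factors CRX and OTX2, on either strand (GGATTA on the reverse).
Prph2 (chr17:46910228-46910527, plus strand): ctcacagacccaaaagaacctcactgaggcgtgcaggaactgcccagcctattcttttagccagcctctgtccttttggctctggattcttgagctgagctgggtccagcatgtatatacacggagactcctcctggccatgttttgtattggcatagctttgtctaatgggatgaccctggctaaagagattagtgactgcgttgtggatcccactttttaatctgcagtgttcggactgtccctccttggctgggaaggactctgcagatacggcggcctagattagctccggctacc
Rom1 (chr19:8929307-8929606, minus strand): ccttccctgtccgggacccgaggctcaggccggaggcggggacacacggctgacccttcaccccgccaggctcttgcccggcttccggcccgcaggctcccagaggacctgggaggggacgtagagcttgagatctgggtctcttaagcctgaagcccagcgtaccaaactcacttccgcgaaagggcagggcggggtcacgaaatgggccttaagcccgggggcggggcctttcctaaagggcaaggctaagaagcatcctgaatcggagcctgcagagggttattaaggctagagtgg
Cdhr1 (chr14:37098298-37098597, minus strand): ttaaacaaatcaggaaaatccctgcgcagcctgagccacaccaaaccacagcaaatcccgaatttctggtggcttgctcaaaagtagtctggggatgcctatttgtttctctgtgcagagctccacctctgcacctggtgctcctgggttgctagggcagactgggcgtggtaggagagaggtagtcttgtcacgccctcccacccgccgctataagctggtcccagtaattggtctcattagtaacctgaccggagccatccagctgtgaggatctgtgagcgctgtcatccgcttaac
Aipl1 (chr11:72037460-72037759, minus strand): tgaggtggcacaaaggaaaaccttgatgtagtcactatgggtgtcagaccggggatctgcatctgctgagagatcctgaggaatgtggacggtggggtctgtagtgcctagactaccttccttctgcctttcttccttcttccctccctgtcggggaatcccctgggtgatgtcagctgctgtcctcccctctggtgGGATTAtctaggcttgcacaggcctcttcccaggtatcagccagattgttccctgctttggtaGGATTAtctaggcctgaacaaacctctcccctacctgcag
Among the 7 genes with a promoter entry, the core was found only in Aipl1, at positions -53 and 11 relative to the start site, both as GGATTA. It was present in 7.06% of all 32851 promoters of this length. A second set of letters, TGCTGA on either strand, part of the element bound by NRL, was found once in the Aipl1 promoter, at -187, and in none of the other 6 genes. It did not overlap the CRX core and was present in 19.5% of all promoters. These matches describe letters within a window of 300 bases and carry no measurement of binding.

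**Figure D1:**
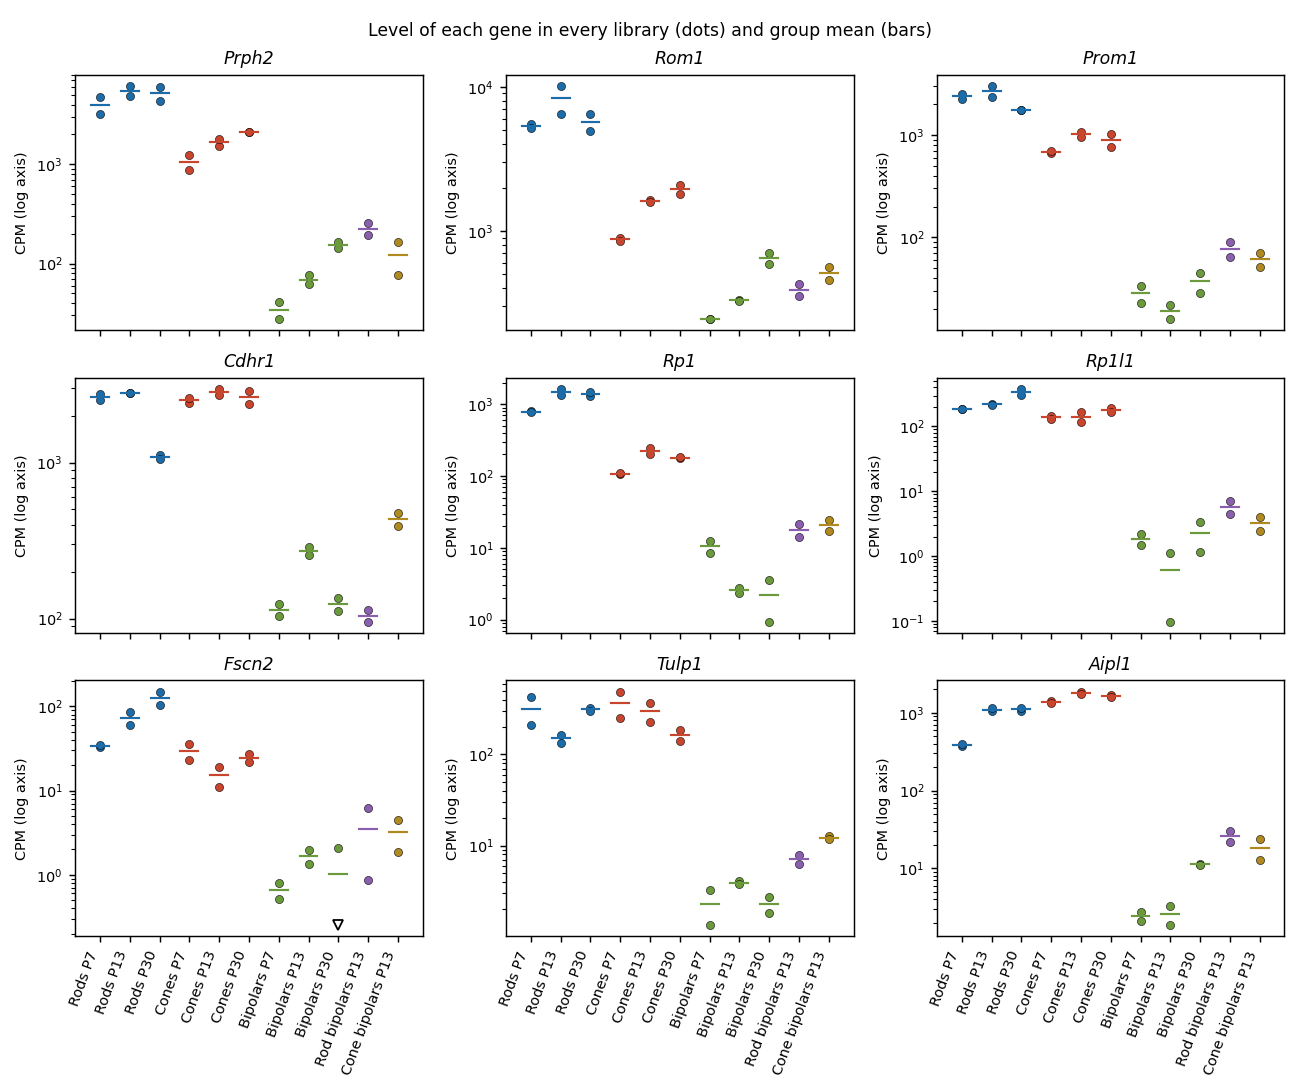
Level of each gene in CPM (log axis) in every library (dots) and as the group mean (bars), for rods, cones and bipolars at P7, P13 and P30 and for rod and cone bipolars at P13. All bipolar-type libraries lie below the rods and cones, Prph2, Rom1, Prom1 and Rp1 are highest in rods, and an open triangle marks the bipolar library at P30 with no Fscn2 reads.

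In the comparison of rods with cones, 4 of the 9 genes were higher in rods at P7 (Rp1, Rom1, Prph2 and Prom1) and 1 was lower (Aipl1). Over all genes tested, 12.8% were called in that comparison, 3.3% higher and 9.54% lower. At P13 the same 4 were higher and none was lower, against 21.2% of all genes called, 7.1% higher and 14.1% lower. At P30, 3 were higher (Rp1, Rom1 and Prph2) and 1 was lower (Cdhr1), against 20% of all genes called, 9.99% higher and 10% lower. The median log2 difference over the 9 genes was 0.42, 1.38 and 0.98 at the 3 ages, beside -0.16, -0.11 and 0.14 over all genes tested.

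Group means were highest in rods at P13 for Prph2, Rom1, Prom1 and Rp1, and in rods at P30 for Rp1l1 and Fscn2. They were highest in cones at P13 for Cdhr1 and Aipl1 and in cones at P7 for Tulp1. Compared per kilobase of exon, Rom1 had the highest level of the 9 in rods at every age, at 3519, 5466 and 3779 CPM per kb, and Prph2 was next, at 1323, 1832 and 1723 CPM per kb. In cones at P7 the highest was Cdhr1, at 580.0 CPM per kb, just above Rom1 at 577. Fscn2 had the lowest level in rods at P7, at 16.1 CPM per kb, and Rp1 the lowest in cones at P7, at 8.78 CPM per kb. Of 99 such ranks, 28 moved when the longest transcript replaced the union of exons. Whether reads lay evenly along the transcripts was not tested.

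**Figure D2:**
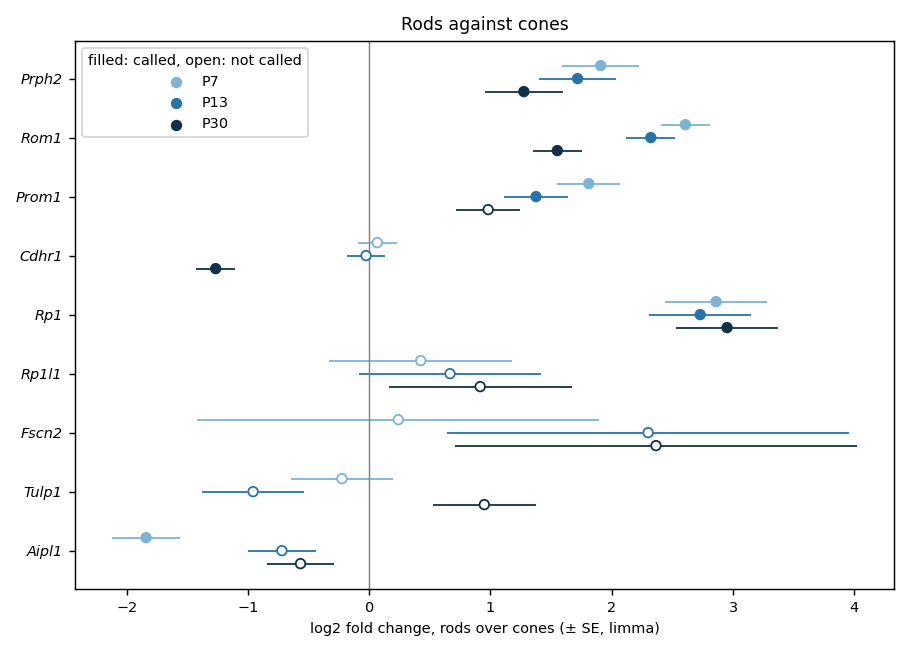
Log2 fold change of rods over cones ± SE (limma, 2 libraries per group) for each gene at P7, P13 and P30. Filled points were called. Rp1, Rom1 and Prph2 lie to the right at each age, Aipl1 lies to the left most clearly at P7, and Cdhr1 moves from 0.07 at P7 to -1.27 at P30.

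Prph2 encodes peripherin-2, the tetraspanin that bends the disc membrane at its rim (ENSMUSG00000023978, chromosome 17, 46910459 to 46924933, plus strand, 1-based on GRCm38 as are all gene positions here). Its rod libraries gave 3218 and 4727 CPM at P7, 4878 and 6123 at P13, and 4352 and 5993 at P30. Cone libraries gave 1244 and 867 CPM at P7, 1523 and 1811 at P13, and 2091 and 2128 at P30. Every rod library thus stood above every cone library, and rods at P30 overlapped both P7 and P13, while P7 lay below P13. The difference was 1.91 ± 0.32 at P7 (3.75-fold, limma adjusted p = 0.00076), 1.72 ± 0.32 at P13 (3.29-fold, limma adjusted p = 0.0011) and 1.28 ± 0.32 at P30 (2.42-fold, limma adjusted p = 0.0087). Without replicate 2 of rods at P30 the last became 1.04 ± 0.39 (limma adjusted p = 0.08). With array quality weights, which give noisier libraries less weight, the call was lost at P13 (limma adjusted p = 0.13) and at P30 (limma adjusted p = 0.16).

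Prph2 rose in cones from P7 to P30, by 1.02 ± 0.32 (2.03-fold, limma adjusted p = 0.046). That call lay close to the threshold and was lost without any of the 4 cone libraries, where the change was 1.28 without P7 replicate 1, 0.76 without P7 replicate 2, 1.03 without P30 replicate 1 and 1.01 without P30 replicate 2, with limma adjusted p of 0.096, 0.25, 0.14 and 0.1. It was also lost with the replicate number as a block (limma adjusted p = 0.052), and scaling to plain read totals brought it to 0.24. The 8 rod markers in the cone libraries also summed higher at P30 (8971 to 12844 CPM) than at P7 (4393 to 4498 CPM), mostly Sag and Gngt1. As a share of rods of the same age, the median over these 8 markers was 4.29% at P7 and 3.02% at P30. The part of rod RNA in the cone values of Prph2 and Rom1 was not tested. In rods Prph2 differed by 0.39 over the same ages (95% CI -0.29 to 1.07), which was not called. The test of the rod against the cone change did not call it either (-0.63 ± 0.45).

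Rom1, the other tetraspanin of the rim, joins peripherin-2 in the same complexes (ENSMUSG00000071648, chromosome 19, 8927391 to 8929356, minus strand). In rods it reached 5489 and 5187 CPM at P7, 6495 and 10088 at P13, and 4945 and 6522 at P30. In cones it stood at 894 and 858 CPM at P7, 1652 and 1586 at P13, and 1799.7 and 2086 at P30. Rods and cones did not overlap, and the cone groups followed age without overlap while the rod groups at P7, P13 and P30 overlapped in part. The rod excess was 2.61 ± 0.20 at P7 (6.09-fold, limma adjusted p = 3.8e-07), 2.32 ± 0.20 at P13 (5.0-fold, limma adjusted p = 1e-06) and 1.55 ± 0.20 at P30 (2.93-fold, limma adjusted p = 4.8e-05).

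From P7 to P30 Rom1 rose in cones by 1.15 ± 0.20 (2.21-fold, limma adjusted p = 0.0024), and in rods it differed by 0.09 ± 0.20, which was not called. The summed rod markers of the cone libraries rose over the same ages while their median share of the rod level did not, as given for Prph2. The change in rods was lower than that in cones by 1.06 on the log2 scale, that is -1.06 ± 0.29 (limma adjusted p = 0.028). Scaling moved both. With plain read totals the cone rise was 0.36 and the difference between changes -0.39, and with mitochondrial genome reads left out of the totals they were 0.88 and -0.82, none of them called. The difference between changes was also lost without replicate 1 of rods at P7 (-1.01), replicate 1 of rods at P30 (-0.86), either replicate of cones at P7 (-1.09, -1.03) or replicate 2 of cones at P30 (-0.95), with limma adjusted p from 0.064 to 0.11.

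The ratio of Rom1 to Prph2 within a library, per kilobase of exon, was 3.38 and 2.17 in rods at P7, 2.64 and 3.26 at P13 and 2.25 and 2.15 at P30. In cones it was 1.42 and 1.96 at P7, 2.15 and 1.73 at P13, and 1.70 and 1.94 at P30. All 6 rod libraries lay above all 6 cone libraries, though the nearest pair, rods at P30 and cones at P13, both rounded to 2.15. The rod ratio was 1.44-fold the cone ratio (0.53 on the log2 scale, exact two-sided permutation test within ages over 216 relabellings, p = 0.00926, the smallest these can give). This test and its counterpart for Rp1 were added after seeing the data. Adjusted over both, the exact permutation p stayed at 0.00926, and this adjustment does not account for that choice of ratios. Leaving out single libraries gave exact p-values of 0.00926 to 0.037.

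**Figure D3:**
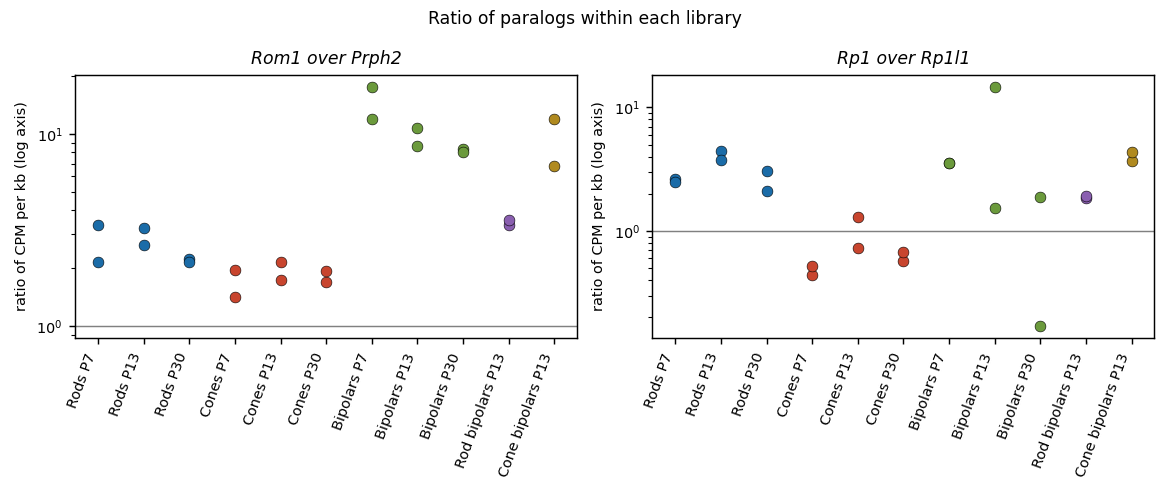
Ratio of Rom1 to Prph2 (left) and of Rp1 to Rp1l1 (right) in each library, as CPM per kb of exon on a log axis, with the grey line at 1. Rod libraries lie at 2.15 to 3.38 on the left and 2.12 to 4.42 on the right, and cone libraries at 1.42 to 2.15 and 0.44 to 1.30.

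Prom1 encodes prominin-1, a membrane protein of the evaginating discs at the outer segment base (ENSMUSG00000029086, chromosome 5, 43993620 to 44102032, minus strand). Rod libraries gave 2533 and 2232 CPM at P7, 2326 and 2988 at P13, and 1749 and 1744 at P30. Cone libraries gave 665 and 691 CPM at P7, 1078 and 957 at P13, and 766 and 1023 at P30. The rods stood above the cones at every age, and the rods at P30 stood below those at P7 and P13. The rod excess was 1.81 ± 0.26 at P7 (3.51-fold, limma adjusted p = 0.0002), 1.38 ± 0.26 at P13 (2.59-fold, limma adjusted p = 0.0013) and 0.98 ± 0.26 at P30 (1.97-fold, limma adjusted p = 0.012), the last below the fold threshold. It passed that threshold without replicate 2 of cones at P30 (1.19 ± 0.32, limma adjusted p = 0.013) and with plain read totals (1.59). With array quality weights the call at P13 was lost (limma adjusted p = 0.13). No change of Prom1 with age was called in rods, cones or bipolars, and from P7 to P30 in rods the 95% CI ran from -1.0 to 0.11. An exon of Prom1 overlaps 311 bases of Gm16401 on the opposite strand, and reads from there cannot be told apart in libraries that do not mark the strand.

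Cdhr1 encodes a photoreceptor cadherin that links the edges of newly forming discs to the inner segment (ENSMUSG00000021803, chromosome 14, 37077857 to 37098347, minus strand). In rods it stood at 2733 and 2529 CPM at P7, 2780.3 and 2785 at P13, and 1119 and 1056 at P30. In cones it stood at 2422 and 2604 CPM at P7, 2954 and 2718 at P13, and 2377 and 2878 at P30. The rods at P30 were therefore the low group, below every other rod and cone library, while at P7 and P13 rods and cones overlapped. The differences at P7 (0.07, 95% CI -0.27 to 0.41) and P13 (-0.03, 95% CI -0.37 to 0.31) were not called. At P30 Cdhr1 was lower in rods by -1.27 ± 0.16 on the log2 scale (2.41-fold lower, limma adjusted p = 3.5e-05).

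Within rods, Cdhr1 fell from P13 to P30 by -1.36 ± 0.16 (2.56-fold, limma adjusted p = 7e-05) and from P7 to P30 by -1.27 ± 0.16 (2.42-fold, limma adjusted p = 3.9e-05). In cones it differed by 0.06 from P7 to P30 (95% CI -0.28 to 0.40). The change in rods differed from that in cones by -1.33 ± 0.23 (limma adjusted p = 0.002). With plain read totals the difference between rods and cones at P30 was -0.66 and that between the changes -0.66 (limma adjusted p = 0.0092 and 0.075), neither past both thresholds. With no other groups in the fit, the fall from P13 to P30 had a limma adjusted p of 0.12 and the difference between changes one of 0.061, at the same size.

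Rp1 encodes a doublecortin-domain protein that binds the axoneme microtubules and is needed for discs to stack in order (ENSMUSG00000025900, chromosome 1, 3999557 to 4409241, minus strand). Rod libraries held 801 and 769 CPM at P7, 1624 and 1331 at P13, and 1302 and 1497 at P30. Cone libraries held 105 and 111 CPM at P7, 244 and 201 at P13, and 178 and 183 at P30. No cone library came near the lowest rod library, and cones held 13.8, 15.1 and 12.9% of the rod level at the 3 ages, the lowest share among the 9 genes. The rod excess was 7.26-fold at P7, 6.63-fold at P13 and 7.73-fold at P30, or 2.86, 2.73 and 2.95, each ± 0.42 (limma adjusted p = 0.00024, 0.00024 and 0.00011). No change with age was called in rods (0.83 ± 0.42 from P7 to P30) or cones (0.74 ± 0.42). Yet in both types the P7 libraries lay below all those at P13 and P30. From P7 to P13 the unadjusted limma p was under 0.05 in rods and in cones. The SE comes with a pooled spread that includes bipolar libraries of 25 to 271 reads.

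Rp1l1, the paralog of Rp1 that also sits on the axoneme (ENSMUSG00000046049, chromosome 14, 63992506 to 64035025, plus strand), was far more even between rods and cones. It had 185 and 188 CPM in rods at P7, 226 and 217 at P13, and 377 and 303 at P30. In cones it had 147 and 132 CPM at P7, 115 and 168 at P13, and 192 and 167 at P30. At each age the rod libraries were above the cone libraries of that age, with cones at 74.6, 64.1 and 52.8% of the rod mean, yet none of the differences was called (0.42, 0.67 and 0.92, each ± 0.75). The wide SE comes with a pooled spread that includes bipolar libraries of 2 to 91 reads. At P30 a fit to recovered reads with voom gave 0.92 ± 0.19 (limma adjusted p = 0.0012), still below the fold threshold.

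The ratio of Rp1 to Rp1l1, per kilobase, was 2.66 and 2.51 in rods at P7, 4.42 and 3.78 at P13 and 2.12 and 3.04 at P30. In cones it was 0.44 and 0.52 at P7, 1.30 and 0.73 at P13, and 0.57 and 0.67 at P30. Every rod library thus held more Rp1 than Rp1l1 per length. Whether cone libraries lay above or below 1 depended on the length used, with 1 of 6 above it per exon union and 3 of 6 per longest transcript (0.696 to 2.06). The rod ratio was 4.53-fold the cone ratio (2.18 on the log2 scale, exact two-sided permutation p = 0.00926 within ages, adjusted 0.00926, again the smallest possible), and stayed between 4.11-fold and 4.98-fold when single libraries were left out.

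Fscn2 encodes retinal fascin, which bundles actin filaments in photoreceptors (ENSMUSG00000025380, chromosome 11, 120361534 to 120368168, plus strand). Its rod values were 33.4 and 34.7 CPM at P7, 60.5 and 85.2 at P13, and 105 and 148 at P30. Its cone values were 23.2 and 35.8 CPM at P7, 19.1 and 11.1 at P13, and 21.7 and 27.0 at P30. Rods and cones overlapped at P7 and parted at P13 and P30, where the rod mean was 482 and 519.7% of the cone mean, and the rod groups ranked with age without overlap. None of this was called in the fit over all groups (2.30 ± 1.66 at P13, 2.36 ± 1.66 at P30, and 1.88 ± 1.66 for rods from P7 to P30), whose spread for Fscn2 includes a bipolar library with no reads. With no other groups in the fit, the same differences had SEs of 0.45, 0.29 and 0.26 and were called (limma adjusted p = 0.045, 0.011 and 0.0066). They were also called on the log2(CPM + 1) scale and with voom.

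Tulp1 encodes a tubby-like protein that photoreceptors need to move pigment and other cargo into the outer segment (ENSMUSG00000037446, chromosome 17, 28351515 to 28365222, minus strand). Rod libraries gave 212 and 423 CPM at P7, 135 and 165 at P13, and 323 and 302 at P30. Cone libraries gave 483 and 254 CPM at P7, 228 and 368 at P13, and 187 and 139.9 at P30. Rods were below cones at P13 and above them at P30. At P7 the replicates of each group lay further apart than the group means, which were 318 CPM in rods and 369 CPM in cones. No difference between rods and cones was called (-0.22, -0.96 and 0.95, each ± 0.42, limma adjusted p = 0.8, 0.11 and 0.12). No change with age was called in rods or cones, the largest being -1.11 ± 0.42 in cones from P7 to P30 (limma adjusted p = 0.095).

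Aipl1 encodes the co-chaperone that photoreceptors need to fold and assemble cyclic GMP phosphodiesterase, PDE6 (ENSMUSG00000040554, chromosome 11, 72027963 to 72037509, minus strand). In rods it had 377 and 394 CPM at P7, 1046 and 1142 at P13, and 1066 and 1144 at P30. In cones it had 1417 and 1343 CPM at P7, 1839 and 1763 at P13, and 1699 and 1574 at P30. All cone libraries were above all rod libraries, and the rods at P7 were the lowest photoreceptor group. Aipl1 was lower in rods at P7 by -1.84 ± 0.28 (3.58-fold lower, limma adjusted p = 0.0003), while -0.72 ± 0.28 at P13 and -0.57 ± 0.28 at P30 were not called (limma adjusted p = 0.069 and 0.15). With plain read totals the value at P30 was 0.04, so its sign depends on the scaling.

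Rods gained Aipl1 from P7 to P13, by 1.5 ± 0.28 (2.84-fold, limma adjusted p = 0.0021), and from P7 to P30, by 1.52 ± 0.28 (2.87-fold, limma adjusted p = 0.00091). The first was not called with array quality weights (limma adjusted p = 0.26) or with no other groups in the fit (limma adjusted p = 0.065). In cones the value from P7 to P30 was 0.25 (95% CI -0.34 to 0.84). The rod change exceeded the cone change by 1.27 ± 0.39 (limma adjusted p = 0.049). This call was lost without any 1 of the 8 rod and cone libraries at P7 and P30, where the value was 1.22 to 1.33 and the limma adjusted p 0.083 to 0.14. With plain read totals the value was 1.94 and called.

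**Figure D4:**
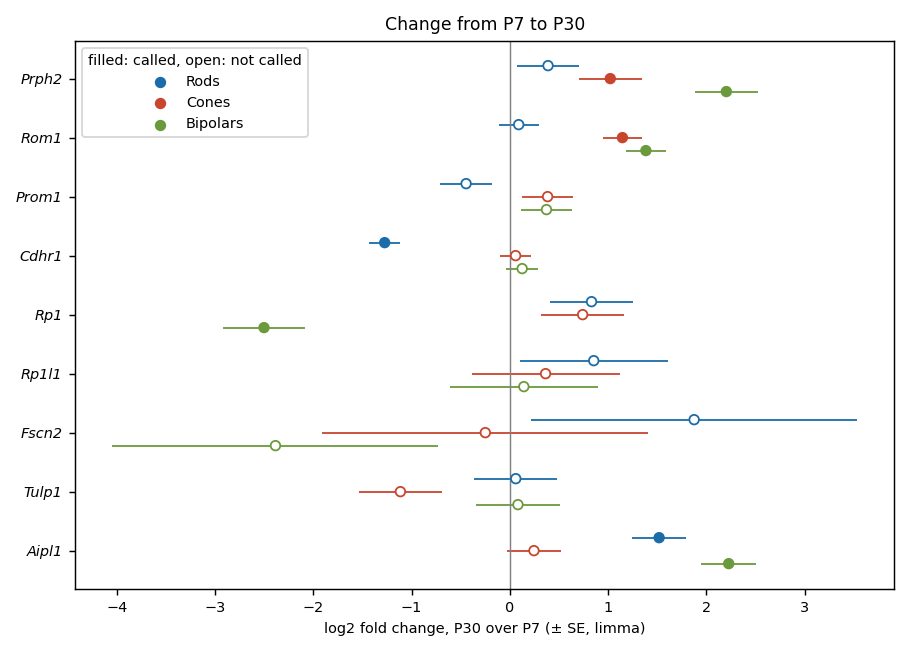
Log2 fold change from P7 to P30 ± SE (limma, 2 libraries per group) for each gene in rods, cones and bipolars. Filled points were called: Cdhr1 at -1.27 and Aipl1 at 1.52 in rods, Prph2 and Rom1 in cones, and Prph2, Rom1, Aipl1 and Rp1 in bipolars.

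Within each photoreceptor type, between 0 and 2 of the 9 genes were called over age. In rods 1 rose and none fell from P7 to P13, against 12.6% of all genes called (5.63% higher, 7.02% lower). From P13 to P30, 1 fell and none rose, against 12% (6.75% higher, 5.29% lower). From P7 to P30, 1 rose and 1 fell, against 19.9% (10.7% higher, 9.15% lower). In cones 2 rose from P7 to P30, Prph2 and Rom1, against 10.5% of all genes called (3.18% higher, 7.28% lower). From P7 to P13 limma called 0 of the 9 in cones, with 3 at an unadjusted p under 0.05 (Prom1, Rom1 and Rp1) and 1 called with voom, against 0.44% of all genes. From P13 to P30 it called 0, with 0 at an unadjusted p under 0.05 and 0 with voom, against 3.2% of all genes (0.85% higher). Tested against each other, the P7 to P30 changes of rods and cones differed for 3 of the 9, higher in rods for Aipl1 and lower for Cdhr1 and Rom1, against 10.6% of all genes (6.06% higher, 4.57% lower).

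All 9 genes were lower in bipolars than in the mean of rods and cones at P7, P13 and P30. At P7, 22.7% of all genes were called in that comparison, 11.6% higher and 11.1% lower. At P13 the shares were 33.4, 20.6 and 12.8%, and at P30 35.6, 22.6 and 13%. The median over the 9 genes was -5.61, -5.73 and -6.65, beside 0.12, 0.18 and 0.13 over all genes. No bipolar library of any of the 9 genes reached a rod or cone library of its age, which held for 22.9, 20.2 and 20% of all genes tested. The differences ran from -2.36 ± 0.18 for Rom1 at P30 (5.15-fold lower, limma adjusted p = 7e-08) to -9.13 ± 0.24 for Aipl1 at P13 (560.3-fold lower, limma adjusted p = 2e-12).

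For Fscn2 the call in bipolars was the least firm. At P13 it was lost without replicate 2 of rods, replicate 1 of cones or either bipolar replicate (-4.17, -4.10, -4.02 and -4.57, limma adjusted p = 0.051, 0.06, 0.13 and 0.099). At P7 it was lost without replicate 2 of bipolars (-5.29, limma adjusted p = 0.076). Its bipolar libraries held 0.791 and 0.509 CPM at P7, 1.36 and 1.99 at P13, and 2.07 CPM and no reads at P30. The fitted difference at P30, -8.81 ± 1.44, depends on the value given to that library and was -4.73 without it (limma adjusted p = 0.00089).

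What remained in bipolars was uneven across the genes. As a share of the rod mean of the same age, Rom1 stood at 4.62, 4.01 and 11.3% at P7, P13 and P30, and Cdhr1 at 4.33, 9.72 and 11.4%. Rp1 stood at 1.34, 0.17 and 0.16%, and Aipl1 at 0.63, 0.24 and 1.02%. The median over the 9 genes was 1.19, 1.25 and 1.02%. The 8 rod markers had medians of 1.05, 0.408 and 0.490%, from 0.0751% for Samd11 to 7.29% for Gngt1, both at P30. The part of rod RNA in these bipolar values was not tested. Per length, the ratio of Rom1 to Prph2 was 8.08 to 17.6 in the 6 bipolar libraries, above all rod and cone libraries. In cone bipolars it was 6.77 and 11.9. In rod bipolars it was 3.35 and 3.58, close to the highest rod library at 3.38.

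**Figure D5:**
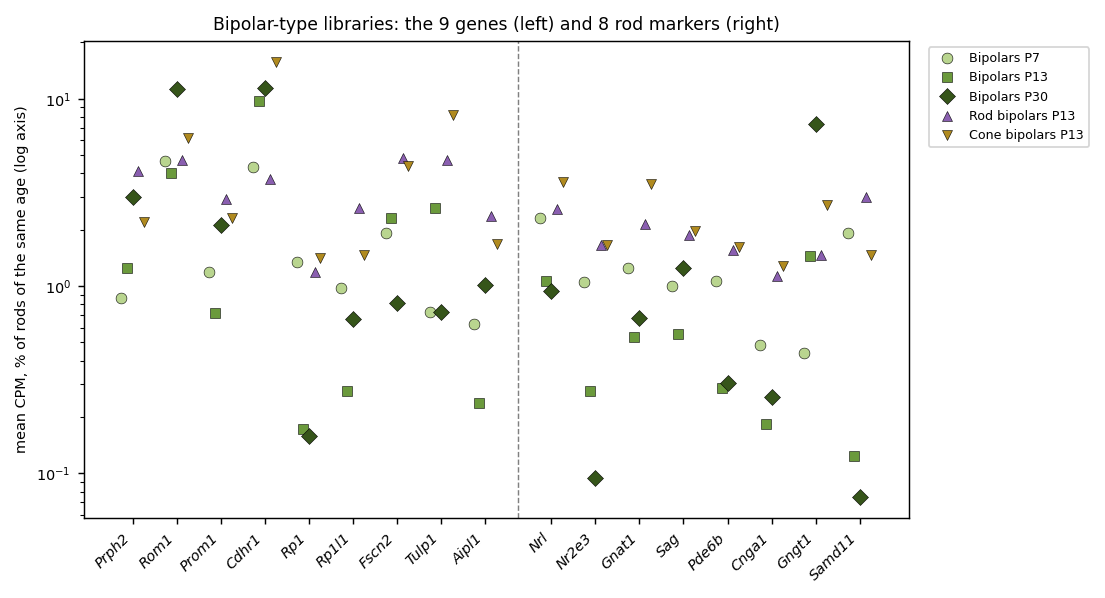
Mean CPM in bipolars, rod bipolars and cone bipolars as a percentage of the mean in rods of the same age (log axis), for the 9 genes and for 8 rod markers. Rom1 and Cdhr1 lie highest among bipolars at P30, at 11.3 and 11.4%, and the 8 rod markers lie between 0.0751% (Samd11) and 7.29% (Gngt1) at that age, 6 of them under 1%.

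Over age, bipolars showed changes in 5 of the genes. Prph2 had 40.9 and 27.7 CPM at P7, 61.9 and 75.8 at P13, and 167 and 144 at P30. Rom1 had 247 and 246 CPM, then 335 and 330.0, then 704 and 589. Aipl1 had 2.75 and 2.09 CPM, then 3.30 and 1.89, then 11.4 and 11.1. These genes were highest at P30 with no overlap, whereas Rp1 went the other way, from 12.6 and 8.42 CPM at P7 to 2.76 and 2.33 at P13 and 3.53 and 0.931 at P30. Cdhr1 peaked at P13, with 124 and 104 CPM, then 286 and 255, then 136 and 112.

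From P7 to P30, 3 of the 9 rose in bipolars, against 7.96% of all genes called higher, and 1 fell, against 4.5% called lower and 12.5% called in all. Prph2 rose by 2.20 ± 0.32 (4.61-fold, limma adjusted p = 0.00023), Rom1 by 1.38 ± 0.20 (2.61-fold, limma adjusted p = 0.00024) and Aipl1 by 2.23 ± 0.28 (4.68-fold, limma adjusted p = 5.5e-05). Rp1 fell, at -2.50 ± 0.42 (5.66-fold, limma adjusted p = 0.0008), and without replicate 2 of bipolars at P30 the value was -1.55 ± 0.30 (limma adjusted p = 0.0056). With voom the calls of Aipl1 (limma adjusted p = 0.077) and Rp1 (limma adjusted p = 0.082) were lost.

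From P7 to P13, Cdhr1 rose in bipolars by 1.25 ± 0.16 (2.38-fold, limma adjusted p = 0.0002) and Rp1 fell (-2.02 ± 0.42, limma adjusted p = 0.012), against 2.98% of all genes called (2.3% higher, 0.686% lower). The fall of Rp1 was lost without replicate 1 of bipolars at P7 (-1.73, limma adjusted p = 0.16), without either replicate at P13 (-2.14 and -1.90, limma adjusted p = 0.058 and 0.13) and with voom (limma adjusted p = 0.36). From P13 to P30, Aipl1 rose by 2.17 ± 0.28 (limma adjusted p = 0.00088) and Cdhr1 fell (-1.13 ± 0.16, limma adjusted p = 0.0014), against 1.86% of all genes called (1.39% higher, 0.47% lower). Without replicate 2 of bipolars at P30 the value for Cdhr1 was -0.99 ± 0.20, below the fold threshold, and 5 of the 9 genes were called in that comparison without replicate 1. With voom, Aipl1 was not called (limma adjusted p = 0.19).

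Markers of other cells moved in the same libraries. The 8 rod markers summed to 128 to 203 CPM in bipolars at P7, 252 to 293 at P13 and 482 to 626 at P30. The 8 cone markers summed to 136 to 142, 114 to 129 and 427 to 443 CPM, and the 8 Müller glia markers to 202 to 216, 844 to 1073 and 4985 to 7820 CPM. All 3 sums were highest at P30, the age at which Prph2, Rom1 and Aipl1 were highest. Amacrine, microglia, vascular and red blood cell markers also had their highest sums at P30, horizontal cell markers at P7 and pigment epithelium markers at P13. As a share of rods of the same age, Gngt1 and Sag were higher in bipolars at P30 than at P7 and P13, and Nr2e3 and Samd11 were lower. The median share over the 8 rod markers was 1.05% at P7, 0.408% at P13 and 0.490% at P30, and so did not follow their sum. Markers of the bipolar types moved too. The 4 rod bipolar markers summed to 657 to 741, 1177 to 1226 and 2071 to 2536 CPM in bipolars at P7, P13 and P30. The 4 cone bipolar markers summed to 1128 to 1173, 1432 to 1439 and 935 to 992 CPM, highest at P13, as Cdhr1 was. The part of these cells, or of the mix of bipolar types, in the bipolar changes was not tested.

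The P7 to P30 change in bipolars was also tested against the mean change in rods and cones. Of the 9 genes, 2 rose more in bipolars and 1 less, against 11.1% of all genes called (6.87% higher, 4.27% lower). The differences were 1.5 ± 0.39 for Prph2 (limma adjusted p = 0.021), 1.35 ± 0.34 for Aipl1 (limma adjusted p = 0.017) and -3.29 ± 0.52 for Rp1 (limma adjusted p = 0.00072). The call of Prph2 was lost without replicate 2 of bipolars at P7 (1.22) or either replicate at P30 (1.39 and 1.60), with limma adjusted p of 0.059 to 0.13. That of Aipl1 was lost without the same libraries (1.15, 1.33 and 1.36), with limma adjusted p of 0.055 to 0.11, and both were lost with voom.

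Rod bipolars, which receive rod input, and cone bipolars, which receive cone input, differed in 1 of the 9 genes at P13, against 4.68% of all genes called (1.51% higher, 3.17% lower). Cdhr1 gave 95.3 and 113 CPM in rod bipolars and 393 and 477 CPM in cone bipolars. It was lower in rod bipolars by -2.06 ± 0.16 (4.17-fold lower, limma adjusted p = 1.3e-06), and the bipolars of that age lay between, at 286 and 255 CPM. Rod markers summed to 454 to 782 CPM in rod bipolars and 724 to 962 CPM in cone bipolars, cone markers to 64.1 to 79.7 and 171 to 192 CPM, and their part in the difference was not tested. The rod bipolar markers summed to 6989 to 8526 CPM in rod bipolars and 309 to 438 CPM in cone bipolars. The cone bipolar markers summed to 303 to 304 CPM in rod bipolars and 1574 to 1786 CPM in cone bipolars. The part of cone bipolar RNA in the Cdhr1 values of rod bipolars was not tested.

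Of the other 8 genes, Prph2 came closest to a call between these types, with 255 and 196 CPM in rod bipolars and 165 and 76.5 CPM in cone bipolars (0.99 ± 0.32, limma adjusted p = 0.092). Without replicate 1 of cone bipolars it was called (1.54 ± 0.32, limma adjusted p = 0.016), and without replicate 2 the value was 0.43. Rom1 stood at 431 and 353 CPM against 566 and 459 CPM, Aipl1 at 30.1 and 21.6 against 24.1 and 12.8, and Tulp1 at 6.31 and 7.82 against 12.7 and 11.9. Rom1 and Tulp1 were higher in both cone bipolar libraries, with differences of -0.39 (95% CI -0.82 to 0.05) and -0.80 (95% CI -1.71 to 0.10), and Aipl1 overlapped, none of them called.

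Genes with related roles were read from 4 lists. Over all genes, 3.3, 7.1 and 9.99% were called higher in rods than in cones at the 3 ages, with medians of -0.16, -0.11 and 0.14. Of 10 disc membrane and rim partners, 3, 4 and 6 were higher in rods than in cones at P7, P13 and P30 and none was lower, with medians of 0.59, 0.54 and 1.28. Cngb1, the channel subunit that ties the rod plasma membrane to the disc rim, had 878 to 1219 CPM over the rod libraries and 19.6 to 36.9 CPM over the cone libraries (5.05, 5.31 and 5.08, each ± 0.33). Of 16 genes of the connecting cilium and axoneme, 1, 4 and 3 were higher in rods and none was lower, with medians of 0.08, 0.71 and 0.70. Arl13b, a small GTPase of the ciliary membrane, was called at each age (1.97, 2.83 and 2.67, each ± 0.22), and Cep290, a protein of the connecting cilium, at P13 and P30 (1.55 and 1.70, each ± 0.40). Of 14 genes of cargo transport, 3, 2 and 2 were higher and 0, 1 and 2 lower, with medians of 0.33, 0.23 and -0.09. Reep6, which acts in rod membrane trafficking, led the higher ones (3.01, 3.99 and 3.35, each ± 0.34), and Pde6d, which carries prenylated proteins to the outer segment, was lower in rods at P30 (-1.96 ± 0.21).

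Among the 5 subunits of PDE6, the client of Aipl1, rods were higher than cones in 2, 3 and 2 at P7, P13 and P30. At each age 2 were lower, beside 9.54, 14.1 and 10% of all genes. Pde6g was called at P13 alone, as higher in rods. Pde6a and Pde6b, the rod catalytic subunits, were higher in rods at each age (Pde6a 3.60, 4.04 and 3.99, each ± 0.48). Pde6c and Pde6h, the cone subunits, were lower, with Pde6c at 3579.9 to 7815 CPM over the cone libraries and 0.0219 to 18.8 CPM over the rod libraries. From P7 to P30 Pde6a rose in rods by 3.44 ± 0.48 and in cones by 3.06 ± 0.48 (limma adjusted p = 0.00011 and 0.0011). The cone libraries also held rod markers, as given for Prph2, and the part of rod RNA in the cone rise of Pde6a was not tested. Over the same ages in rods, 4 of 10 disc partners and 6 of 16 cilium genes rose and none fell, with medians of 1.22 and 0.91, beside 0.10 over all genes and 10.7% called higher. Of the 5 PDE6 subunits 3 rose, Pde6a and the cone subunits Pde6c and Pde6h, and the latter stood in rods at P30 at no more than 18.8 and 14.4 CPM. Of the 14 transport genes 2 rose and 1 fell, with a median of -0.064. In bipolars, 8, 9 and 7 of the 10 disc partners, 10, 11 and 11 of the 16 cilium genes, 9, 9 and 7 of the 14 transport genes and all 5 PDE6 subunits were lower than in photoreceptors at P7, P13 and P30. A single cilium gene at P13 and 1, 1 and 2 transport genes were higher. The medians were -3.87, -3.94 and -3.46 for disc partners, -1.81, -1.89 and -1.40 for cilium genes, -1.59, -1.57 and -1.14 for transport genes and -5.52, -5.95 and -5.61 for PDE6 subunits, beside 0.12, 0.18 and 0.13 over all genes.

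Of 12 listed paralogs of these genes, 9 were in the table. Fscn1, the broadly expressed fascin, had 105 to 222 CPM over the bipolar libraries, 7.01 to 25.2 CPM over cones and 1.38 to 16.8 CPM over rods, and was higher in bipolars than in photoreceptors at each age (3.85, 4.13 and 4.72, each ± 0.41). Tub, the founder of the tubby family, was lower in bipolars at each age (-3.37, -2.87 and -2.93, each ± 0.20) and higher in rods than in cones at P7 and P30 (1.19 and 1.63, each ± 0.23). Against photoreceptors, 2, 5 and 4 of the 9 paralogs were higher in bipolars and 3, 2 and 2 were lower, with medians of 1.19, 1.24 and 1.77. Over all genes 11.6, 20.6 and 22.6% were higher and 11.1, 12.8 and 13% lower.

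The genes whose mean log2 CPM over the 11 groups ran most like each of the 9 were sought among 8063 genes, as a description. Each correlation rests on 11 group means, and most of any such correlation reflects the gap between photoreceptors and bipolar types. The nearest were Elovl4 for Prph2 (r = 0.988), A330094K24Rik for Rom1 (r = 0.987), Nxnl2 for Prom1 (r = 0.993), Cadm2 for Cdhr1 (r = 0.967) and Hs3st3b1 for Rp1 (r = 0.984). For the others they were Casz1 for Rp1l1 (r = 0.994), Cfap206 for Fscn2 (r = 0.969), Fam57b for Tulp1 (r = 0.988) and Rtbdn for Aipl1 (r = 0.992). Elovl4 was among the 3 nearest of both Prph2 and Prom1, Pdc of both Prom1 and Rp1, and Cfap206 of both Rp1 and Fscn2. Among the 9 genes themselves, r ran from 0.778 for Rom1 and Cdhr1 to 0.980 for Prom1 and Rp1l1.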

How the data were processed

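RNA of sorted retinal cells was isolated with PicoPure columns, linearly amplified and made into TruSeq libraries, per the labels' protocols. The kit is one that does not mark the strand. Per the submitters' processing notes the authors used STAR and edgeR with GRCm38 (mm10). For the counter, annotation and gene filter, no source used here gives a name. As deposited, the authors' table holds log2 CPM of 13812 genes in 22 libraries, a unit read from the file and its values. Taking off the common floor (-7.10) returned reads within 0.01 of a whole number for 100% of values, and CPM and read totals in the text come from these.

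Symbols and positions came from GENCODE M21 for 13790 identifiers. The other 22, with at most 0.333% of a library's reads, were left out. Genes with a log2 CPM of at least 0 in both libraries of 1 or more groups were tested (13410 genes, all 9 described here among them, and 380 were left out). One limma 3.58.1 model in R 4.3.3 held a coefficient per group (11 residual and 4.27 prior degrees of freedom) with an intensity trend and empirical Bayes, and gave 18 comparisons. The fit was also run on simulated counts with a single spread setting for all genes and changes in rods at P7 alone. These settings are simpler than the data, so that run says nothing about the calls given here. Ratio tests used scipy 1.17.1 in Python 3.11.15.

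Alternatives changed the pseudocount, filter, scaling, weights, trend, replicate block, groups in the fit and each library. Fits to recovered reads with voom were added after seeing the data. Named genes were the 9 genes, up to 4 called genes per list and comparison with the largest change, of which a part is given, and the 3 most similar genes each. The genes and lists were chosen with earlier results of these data known.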

Additional observations from a re-analysis of the deposited data

Results flagged for a closer look

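For 6 results the change from P7 to P30 differed between cell types by a test of the difference itself, the interaction term of the limma fit. Between rods and cones these were Cdhr1 (-1.33), Rom1 (-1.06) and Aipl1 (1.27), each the log2 change in rods less that in cones. Between bipolars and the mean of rods and cones they were Prph2 (1.5), Aipl1 (1.35) and Rp1 (-3.29). Each of these calls but that of Rp1 was lost under some of the alternatives. The value for Rp1 ran from -4.24 to -2.33 when single libraries were left out. The sums of rod, cone and Müller glia markers were also highest in bipolars at P30, and cones at P30 had the highest share of mitochondrial reads. The part of either in these differences was not tested.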

How the results depend on the processing

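Of 61 calls of the 9 genes, refitted 944 times in all under the alternatives, 879 refits kept the call, 65 lost it and none turned its direction. Counted by call, 41 of the 61 held in every alternative. The cause of the losses was not tested. The sign of Aipl1 for rods against cones at P30, not called, turned to 0.039 with plain read totals. The number of the 9 genes called moved by over 1.5 times as follows. For rods against cones at P13 it was 4, and 2 with array quality weights. For rods from P7 to P13 it was 1, and 2 with plain totals or voom and 0 with array weights or only the groups compared. For rods from P13 to P30 it was 1, and 2 with voom and 0 with only the groups compared. For cones from P7 to P13 it was 0, and 1 with voom. For cones from P7 to P30 it was 2, and 1 with plain totals, without mitochondrial reads, with array weights, with no intensity trend, with the replicate block, with only the groups compared, and without any 1 library (1 to 1). For bipolars it was 2 from P7 to P13 (4 with array weights, 1 with voom, 1 to 2 without 1 library), 2 from P13 to P30 (1 with voom, 1 to 5 without 1 library) and 4 from P7 to P30 (2 with voom). For rod against cone bipolars it was 1 (1 to 2 without 1 library). For the difference in change between rods and cones it was 3 (1 with array weights, 1 with no trend, 1 to 2 without 1 library), and for that between bipolars and photoreceptors 3 (5 with plain totals, 1 with voom, 1 to 3 without 1 library).

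Over all genes, plain totals gave 3662 calls in place of 1403 for cones from P7 to P30 (81 higher and 3581 lower, in place of 427 and 976), 973 in place of 429 for cones from P13 to P30 (53 and 920, in place of 114 and 315), 110 in place of 59 for cones from P7 to P13, where voom gave 172, and 2342 in place of 1425 for the rod against cone change (2110 and 232, in place of 812 and 613). For rods against cones at P30 the split moved from 1339 higher and 1346 lower to 3094 and 832. For bipolars against photoreceptors it moved from 2758 and 1717 to 3845 and 1046 at P13 and from 3026 and 1744 to 3863 and 1059 at P30. For rods it moved from 755 and 941 to 471 and 1530 from P7 to P13, and from 905 and 710 to 1185 and 497 from P13 to P30.

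With the replicate number as a block, 1 call was lost, that of Prph2 in cones from P7 to P30 (1 of the 9 genes called in place of 2), and the count for all genes was 1371 in place of 1403. The differences between replicates 1 and 2 within a group correlated between groups at -0.142 to 0.193 over 55 pairs of groups, with 5 over 0.1. Whether the numbers mark a shared animal or batch cannot be decided from these correlations. The planned edgeR test on recovered reads was not run, and voom on these reads was run in its place. Values of a few reads, such as Fscn2 and Rp1l1 in bipolars, limit what can be read from their differences, and 2 libraries per group limit all tests.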
